A study of Homo sapiens with 8 samples.

Results

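The BCL2 survival genes and the BAX group were followed in resting and dividing lymphoma cells. The set holds 7 genes, chosen by name. BCL2, BCL2L1, MCL1 and BCL2A1 encode proteins that keep cells alive, and BAX, BAK1 and BOK encode effectors of cell death. They are read by 20 probe sets, short groups of array probes that each report on 1 transcript or a few, out of 54613 that are not controls. All probe sets annotated to just 1 of these symbols were taken, with the brightest over all 8 arrays first. RL is an established human B lymphoma line labelled t(14,18)+, the translocation that puts BCL2 beside the immunoglobulin heavy chain locus, and both groups carry it. Cells grew as multicellular aggregates (MALC) for 14 days and were stained with pyronin Y, which binds RNA. The 4 quiescent samples are the pyronin Y dull cells and the 4 cycling samples the pyronin Y bright cells sorted from such aggregates. Separate cultures are not stated for the samples, so that p-values measure a spread that may be technical, and the number of arrays limits the precision.

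BCL2 family proteins decide whether the outer membrane of the mitochondrion stays closed. BAX and BAK1 form the pores that let cytochrome c out and so start the caspases. The survival proteins hold BAX and BAK1, and the BH3-only proteins that activate them, in an inactive state. In follicular lymphoma the translocation keeps BCL2 switched on in germinal centre B cells, where it is normally low.

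Markers of cycling and resting cells were read first, to describe the groups. These lists were chosen with earlier results of these data known, so that their calls cannot test the labels. All 6 cycling markers tested (MKI67, TOP2A, CCNB1, CCNA2, PCNA and CDK1) were lower and all 5 resting markers (CDKN1B, TXNIP, PIK3IP1, YPEL3 and KLF2) higher in quiescent cells under each of 3 scalings of the arrays. Of all probe sets tested, 9.78% were called lower and 4.17% higher under all 3 scalings. KLF2 passed the filter through its quiescent values alone, so that its call adds nothing here. B cell markers were bright in both groups, with summed intensities of 6 genes of 65218 to 77515 in quiescent and 64936 to 76509 in cycling samples. Centred, BCL6 was called lower (limma adjusted p = 0.0437), and 5 of the 6 had an unadjusted p under 0.05. Their median log2 difference was −0.50 centred, against −0.33 for all genes tested. As deposited and after quantile normalization 0 of the 6 were called. Of 10 markers of other cell types, 5 passed the filter and 0 were called (limma, with 1 at an unadjusted p under 0.05 centred and as deposited, and 0 after quantile normalization), and they summed to 1080 to 1797 in quiescent and 866 to 1264 in cycling samples. On the ACTB controls, which report RNA quality, the 3′ probe set exceeded the 5′ one by a log2 ratio of 2.38 to 2.80 on quiescent and 1.80 to 2.26 on cycling arrays (exact permutation p = 0.0286, two-sided, and 0.0286 after adjustment over the 4 array measures, the smallest p that 70 assignments allow). It differs between the same arrays as every result given here, and its part in them was not tested.

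The scaling of the arrays sets the zero of every difference. The authors scaled each array to the same trimmed mean, and after this the log2 medians of quiescent arrays lay 0.413 above those of cycling arrays. Centring the arrays on their medians therefore lowers every log2 difference (quiescent minus cycling) by 0.413. Over the 27307 probe sets tested, the median difference was −0.22 with centring, 0.19 with the deposited scaling and 0.03 with quantile normalization. A difference minus this median is the same in the centred and the deposited values, and it is called the excess here. Values on an array are relative to its other transcripts, so that fewer cells of a type and less RNA per cell cannot be told apart.

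Of the 20 member probe sets, 17 of 6 genes passed the filter, a mean log2 intensity at or above the median probe set. In the centred values, 1 was called higher and 6 lower in quiescent cells with limma at an adjusted p under 0.05, where 4.26% of all probe sets tested were called higher and 23.8% lower. As deposited, 4 were higher and 0 lower (16.3% and 10.8% of all), with 6 of the 17 at an unadjusted p under 0.05. After quantile normalization 3 were higher and 1 lower (11.3% and 11.9% of all). Under all 3 scalings, 1 probe set was called higher, of BCL2, and 0 lower, where 4.17% and 9.78% of all probe sets were. The groups did not overlap, in the higher direction, at 0 member probe sets centred (4.71% of all), at 3 as deposited (17.1%) and at 1 after quantile normalization (12.3%). In the lower direction this held for 3, 0 and 2 (21.6%, 11.0% and 12.9% of all). Most of these counts are near their backgrounds. The calls above zero were all of BCL2 and BCL2A1, and those below zero all of BCL2L1, MCL1 and BAX. The median difference of the 14 survival probe sets was −0.44 centred and −0.03 as deposited, and that of the 3 BAX and BAK1 probe sets −0.71 and −0.30.

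**Figure D1:**
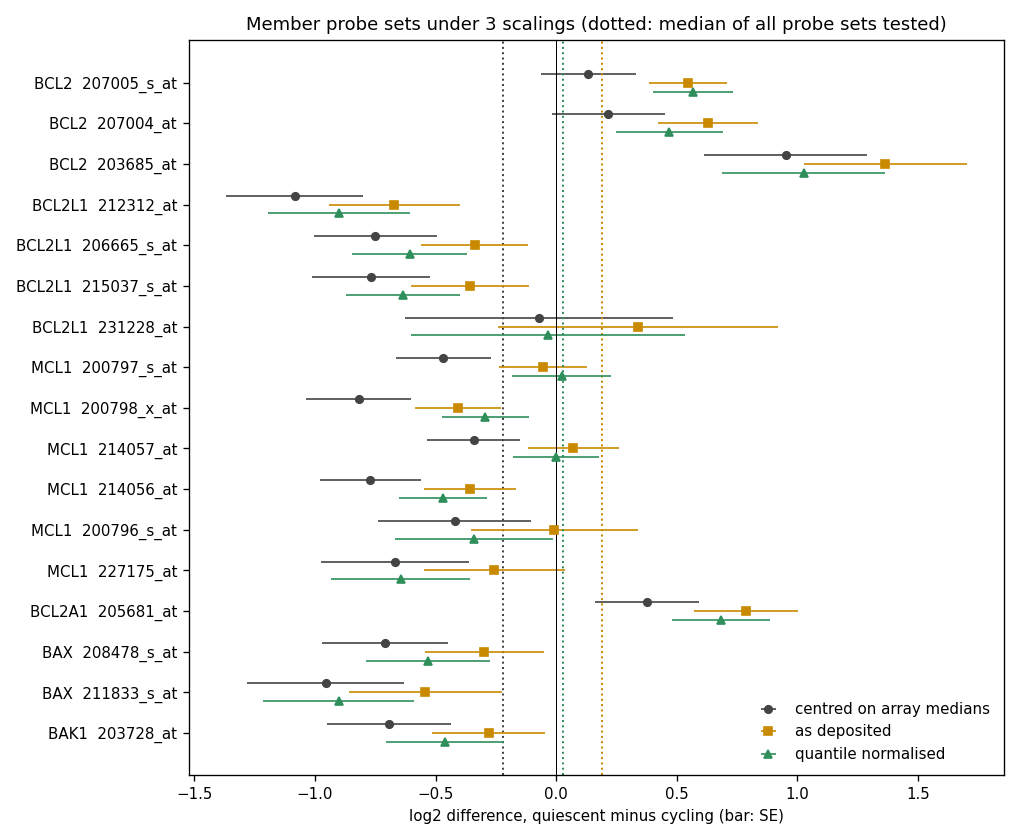
Log2 difference, quiescent minus cycling, with its SE for the 17 member probe sets tested, under 3 scalings, with dotted lines at the median of all probe sets tested. Every BCL2 and BCL2A1 marker lies right of its own dotted line, while those of MCL1, BAX, BAK1 and 3 of 4 BCL2L1 probe sets lie left. The quantile markers of MCL1 200797_s_at and 214057_at lie almost on their line.

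The reference promoters of 4 members, 2 with transcripts on the higher side (BCL2 and BCL2A1) and 2 on the lower (BCL2L1 and BAX), are printed to show the sequence around the starts of genes that went opposite ways. Each runs from 250 bases before to 50 after the start in RefSeq's GRCh38.p14, where 6 of the 7 members were matched. For BCL2 the table's start lies 321 bases inside the outer end of the gene in the same annotation, and for the other 3 at that end. They lie at chr18:63319720-63320019 (minus strand), chr15:79971147-79971446 (minus), chr20:31723914-31724213 (minus) and chr19:48954625-48954924 (plus). Capitals mark matches on either strand to 7 motifs.
BCL2: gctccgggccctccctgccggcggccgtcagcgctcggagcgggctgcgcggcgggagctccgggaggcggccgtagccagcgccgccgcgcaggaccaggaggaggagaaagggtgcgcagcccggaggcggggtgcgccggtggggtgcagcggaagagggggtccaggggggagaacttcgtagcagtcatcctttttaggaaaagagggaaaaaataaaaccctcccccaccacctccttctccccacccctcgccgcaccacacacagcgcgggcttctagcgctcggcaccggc
BCL2A1: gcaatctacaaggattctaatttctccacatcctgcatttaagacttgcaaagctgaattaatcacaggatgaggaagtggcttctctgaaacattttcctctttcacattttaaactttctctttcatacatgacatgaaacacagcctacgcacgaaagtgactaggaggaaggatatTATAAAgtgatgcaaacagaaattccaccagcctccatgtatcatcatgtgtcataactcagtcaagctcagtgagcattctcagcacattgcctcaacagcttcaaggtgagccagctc
BCL2L1: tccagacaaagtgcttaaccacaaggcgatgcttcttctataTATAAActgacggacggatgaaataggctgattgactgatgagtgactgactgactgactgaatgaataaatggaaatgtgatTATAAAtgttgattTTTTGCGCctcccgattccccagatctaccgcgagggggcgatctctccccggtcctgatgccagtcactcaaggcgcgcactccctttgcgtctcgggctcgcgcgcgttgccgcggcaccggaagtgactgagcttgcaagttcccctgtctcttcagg
BAX: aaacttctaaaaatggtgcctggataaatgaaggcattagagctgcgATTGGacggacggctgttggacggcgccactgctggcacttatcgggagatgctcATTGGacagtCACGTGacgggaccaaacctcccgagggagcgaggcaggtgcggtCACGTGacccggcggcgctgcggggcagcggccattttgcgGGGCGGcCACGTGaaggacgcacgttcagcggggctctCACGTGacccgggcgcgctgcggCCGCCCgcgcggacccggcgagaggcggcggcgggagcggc
The motifs searched were a GC box (GGGCGG, in 45% of 35116 promoters), a CCAAT box (CCAAT, 34.6%), a TATA box (TATAAA, 11.5%), an E2F site (TTTNNCGC, 6.89%), a CHR element (TTTGAA, 15.2%), a FOXO site (GTAAACA, 3.42%) and an E-box (CACGTG, 7.26%). The BCL2 window held 0 matches and is 70.7% G and C. BCL2A1 had 1 TATA box, which begins 70 bases before the start, in a window of 41.0% G and C. BCL2L1 had 2 TATA boxes, which begin 208 and 125 bases before the start, and an E2F match 111 bases before it. BAX had 4 E-boxes, which begin 138, 93, 45 and 14 bases before the start, 2 GC boxes and 2 CCAAT boxes. The window of BAK1, also on the lower side but not printed, had 2 GC boxes and 2 CCAAT boxes, with 0 E-boxes and 0 E2F matches. These matches describe letters in the reference and not binding, and the translocated allele of RL was not analysed here.

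BCL2, the gene moved by the translocation, was higher in quiescent cells in the deposited values at each of its 3 probe sets tested. Its brightest probe set, 207005_s_at, had intensities of 1556, 1377, 1927 and 2147 in quiescent samples 1 to 4, against 1372, 1087, 1149 and 1136 in cycling samples 1 to 4. The lowest quiescent value, of sample 2, lay just above the highest cycling value, of sample 1. The log2 difference was 0.55 as deposited (SE 0.16, limma adjusted p = 0.0245) and 0.57 after quantile normalization (adjusted p = 0.0256). Centred, it was 0.13 (SE 0.20, adjusted p = 0.659) and not called, and the excess was 0.36. As deposited it was not called without quiescent sample 3 or 4 or cycling sample 3 or 4, with an adjusted p of up to 0.0816.

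A dimmer BCL2 probe set, 203685_at, was called higher under all 3 scalings. It measured 191, 268, 290 and 326 in quiescent samples 1 to 4, against 52.9, 107, 154 and 127 in cycling samples 1 to 4. The lowest cycling value came from cycling sample 1 and lies under the filter intensity of 83.3. The log2 difference was 0.95 centred (SE 0.34, limma adjusted p = 0.0457), 1.36 as deposited (adjusted p = 0.0100) and 1.03 after quantile normalization (adjusted p = 0.044). As deposited it was called without any 1 of the 8 samples, whereas the centred call was lost without quiescent sample 2, 3 or 4 or cycling sample 1 or 2, with 0.65 (adjusted p = 0.133) without cycling sample 1. The third, 207004_at, had 687, 532, 702 and 408 in quiescent samples, against 444, 338, 379 and 322 in cycling samples, and quiescent sample 4 fell within the cycling range. It was called as deposited (0.63, adjusted p = 0.0387) but not centred (0.22, adjusted p = 0.539) nor after quantile normalization (0.47, adjusted p = 0.148). It too depends on single samples, with a deposited adjusted p of up to 0.118 without quiescent sample 1, 2 or 3 or cycling sample 2, 3 or 4. The fourth, 203684_s_at, did not pass the filter and ran from 96.2 to 236 in quiescent and from 6.01 to 120 in cycling samples. In the platform annotation both brighter probe sets are drawn from a record of the shorter beta transcript and both dimmer ones from the alpha transcript, which encodes the membrane-anchored protein. Levels of different probe sets cannot be set against each other.

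**Figure D2:**
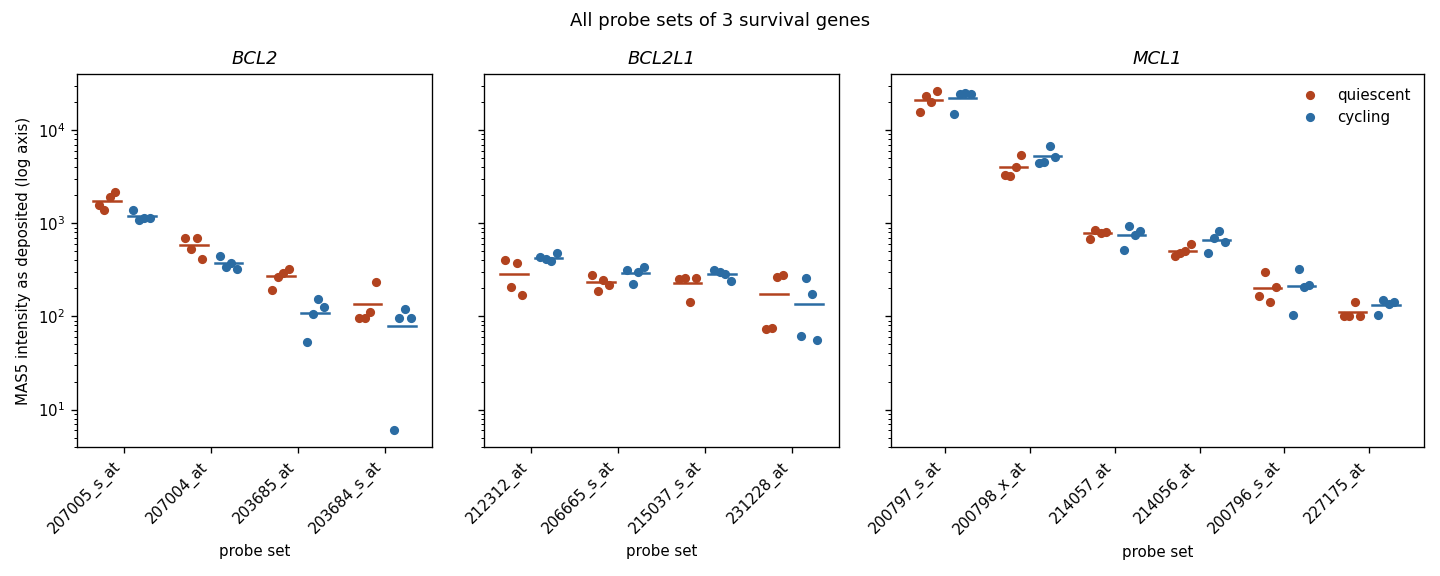
Deposited intensity (log axis) of every probe set of BCL2, BCL2L1 and MCL1 in each quiescent and cycling sample, with bars at group means. At 3 of 4 BCL2 probe sets the quiescent points sit mostly above the cycling ones, at 3 of 4 BCL2L1 probe sets mostly below, and 231228_at splits both groups in the same way.

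BCL2A1, a survival gene that answers to NF-kB in B cells, was likewise higher as deposited. Its 1 probe set had 686, 712, 857 and 956 in quiescent samples 1 to 4, against 299, 589, 504 and 505 in cycling samples 1 to 4. All quiescent intensities lay above all cycling ones as deposited, and cycling sample 1 was the lowest. As deposited the log2 difference was 0.79 (SE 0.22, limma adjusted p = 0.0165), 0.68 after quantile normalization (adjusted p = 0.0288) and 0.38 centred (SE 0.22, adjusted p = 0.214). The excess was 0.60, and 86.2% of all probe sets tested had a lower difference. As deposited, the call was lost without quiescent sample 4 (adjusted p = 0.0553).

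BCL2L1, which encodes the survival protein BCL-xL and by splicing the death-promoting BCL-xS, went the other way. Its brightest probe set, 212312_at, measured 401, 205, 376 and 168 in quiescent samples 1 to 4, against 429, 415, 390 and 481 in cycling samples 1 to 4. Cycling samples were close together, while quiescent samples 2 and 4 were far below samples 1 and 3. Centred, the log2 difference was −1.08 (SE 0.28, limma adjusted p = 9.38e-03) and −0.90 after quantile normalization (adjusted p = 0.0435), and −0.67 as deposited (SE 0.27, adjusted p = 0.0828), where it was not called. Its excess of −0.86 placed it above only 7.99% of the probe sets tested. Probe sets 206665_s_at and 215037_s_at fell in the centred values, by 0.75 and 0.77 (adjusted p = 0.036 and 0.0263), but differed by −0.34 and −0.36 as deposited (adjusted p = 0.271 and 0.293) and were not called after quantile normalization. In the centred values 206665_s_at was no longer called without quiescent sample 2, 3 or 4 or cycling sample 1, 3 or 4 (adjusted p up to 0.112), nor 215037_s_at without quiescent sample 3 or cycling sample 1 or 3 (up to 0.0967). The dimmest, 231228_at, differed by −0.07 centred and 0.34 as deposited and was not called.

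MCL1, a short-lived survival protein on which many B cell lymphomas rely, was called lower at 2 of its 6 probe sets in the centred values and at none as deposited. Probe set 200797_s_at measured 15530, 23302, 20199 and 26051 in quiescent samples 1 to 4, against 14891, 24579, 24981 and 24283 in cycling samples 1 to 4. The groups overlapped fully, with sample 1 the lowest of both. Centred, it differed by −0.47 (SE 0.20, limma adjusted p = 0.0887), −0.06 as deposited (95% interval −0.45 to 0.34, adjusted p = 0.843) and 0.02 after quantile normalization. Without cycling sample 1 it was −0.64 centred and called (adjusted p = 0.0215). Of its 6 probe sets tested, all differed by less than 0 in the centred values and 2 were called, 200798_x_at and 214056_at. The first had 3332, 3247, 3968 and 5407 in quiescent samples, against 4479, 4597, 6805 and 5116 in cycling samples, and fell by 0.82 (adjusted p = 0.01). The second fell by 0.77 (adjusted p = 0.0115). As deposited these 2 differed by −0.41 and −0.36 and 0 of the 6 were called (limma, with 1 at an unadjusted p under 0.05). By the maker's naming, the probes of an _x_at set may also bind other transcripts.

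**Figure D3:**
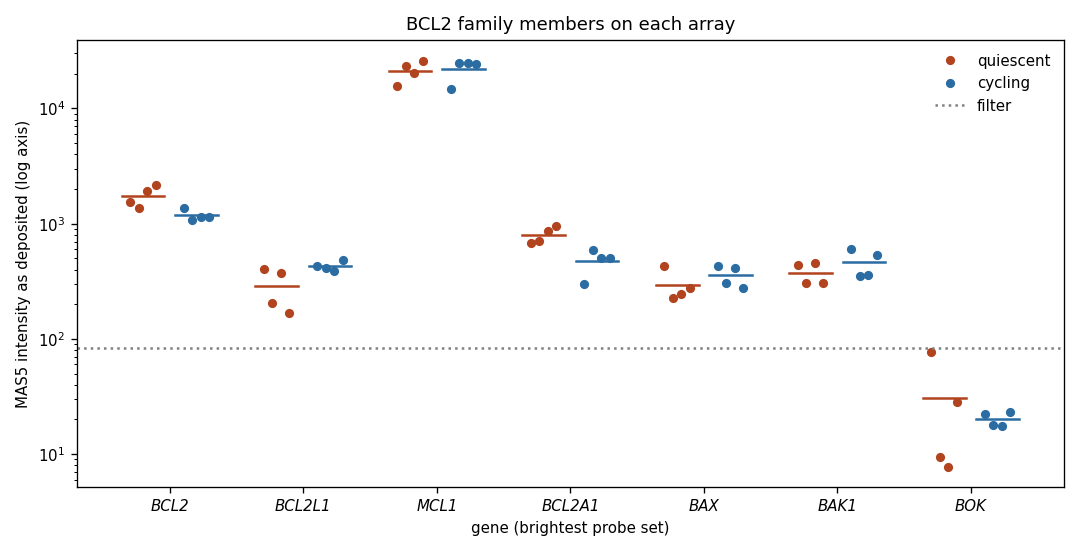
Deposited intensity (log axis) of the brightest probe set of each member in each quiescent and cycling sample, with bars at group means and a dotted line at the filter intensity of 83.3. The groups separate for BCL2 and BCL2A1, overlap for the other members, and BOK lies under the filter.

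BAX, a pore-forming effector and p53 target, measured 429, 225, 246 and 279 at 208478_s_at in quiescent samples 1 to 4, against 432, 307, 414 and 274 in cycling samples 1 to 4. Quiescent sample 1 stood with the highest cycling samples, sample 4 just above the lowest of them, and samples 2 and 3 under it. The log2 difference was −0.71 centred (SE 0.26, limma adjusted p = 0.0538), −0.30 as deposited (95% interval −0.83 to 0.23, adjusted p = 0.384) and −0.53 after quantile normalization (adjusted p = 0.163). Without quiescent sample 1 it was −0.91 centred and called (adjusted p = 0.0142), and without cycling sample 2 also (−0.86, adjusted p = 0.0253). Its dimmer probe set 211833_s_at had 178, 91.1, 106 and 105 in quiescent samples, against 161, 188, 233 and 116 in cycling samples. It fell by 0.95 centred (adjusted p = 0.037) and differed by −0.54 as deposited (adjusted p = 0.219) and −0.90 after quantile normalization (adjusted p = 0.0541). The centred call was lost without quiescent sample 2, 3 or 4 or cycling sample 1 or 3 (adjusted p up to 0.145).

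BAK1, the effector that resides on mitochondria, had 436, 304, 455 and 308 in quiescent samples 1 to 4, against 600, 350, 357 and 538 in cycling samples 1 to 4. The groups overlapped as deposited. It differed by −0.69 centred (SE 0.26, limma adjusted p = 0.0535), −0.28 as deposited (95% interval −0.78 to 0.22, adjusted p = 0.387) and −0.46 after quantile normalization (adjusted p = 0.2). The centred difference was called without quiescent sample 1 or 3 or cycling sample 2, with −0.90 (adjusted p = 0.0109) without the last. BOK, a relative of BAX, did not pass the filter. Its probe set 221454_at ran from 7.71 to 76.9 in quiescent and from 17.7 to 23.2 in cycling samples, and 223349_s_at from 7.07 to 22.1 in quiescent and from 7.58 to 25.1 in cycling samples.

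A difference between 2 probe sets on the same array does not depend on a scaling that adds a constant to the array, so each member was also set against the brightest BCL2 probe set. Relative to BCL2, BCL2L1 was lower in quiescent cells by 1.22 on the log2 scale (SE 0.38), a ratio of 0.43, and the groups did not overlap. BAK1 was lower by 0.83 (SE 0.26), a ratio of 0.564, without overlap, and BAX by 0.84 (SE 0.29), with overlap through quiescent sample 1. Of all other probe sets tested, 24.8% were lower in quiescent cells relative to BCL2 without overlap and 1.54% higher. MCL1 differed by −0.60 relative to BCL2 (SE 0.31) and BCL2A1 by 0.24 (SE 0.29), both with overlap. Two-sided exact permutation p were 0.0286 for BCL2L1 and BAK1, 0.0571 for BAX, 0.0857 for MCL1, 0.629 for BCL2A1 and 0.514 for the dim BOK. None passed when adjusted over these 6 comparisons (0.0857 for BCL2L1 and BAK1, 0.114 for BAX). With all probe sets of a gene averaged, the differences were −1.10 for BCL2L1, −1.02 for MCL1, −1.27 for BAX and −1.13 for BAK1, each with exact p = 0.0286 and an adjusted p of 0.0429. Of all other genes averaged in this way, 52.1% were lower in quiescent cells relative to BCL2 without overlap and 0.42% higher. A fall relative to BCL2 is thus common among all genes.

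**Figure D4:**
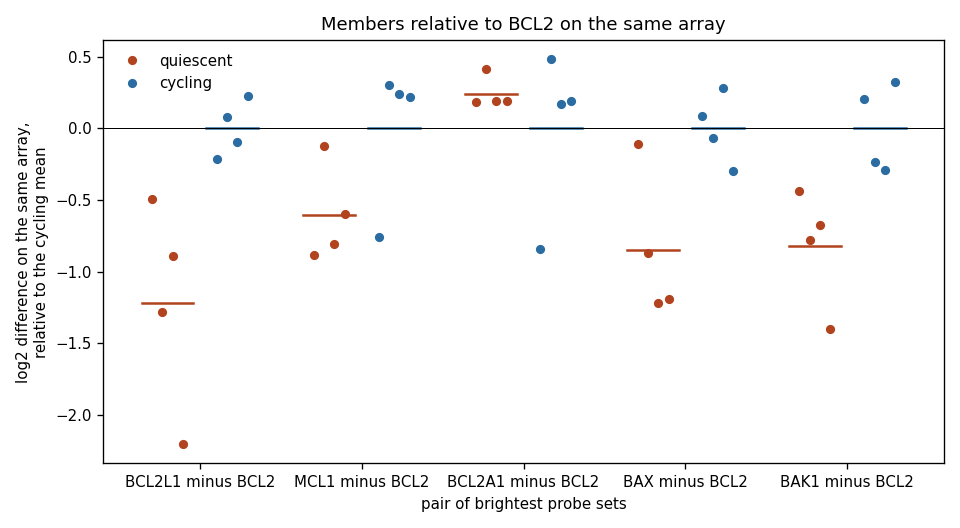
Log2 value of each member minus that of BCL2 on the same array, brightest probe sets, shown relative to the cycling mean, for 4 quiescent and 4 cycling samples with bars at group means. Quiescent points of BCL2L1 and BAK1 lie below all cycling points, BAX overlaps through quiescent sample 1 and MCL1 through cycling sample 1, and BCL2A1 overlaps.

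The BH3-only genes, whose products switch the effectors on or block the survival proteins, did not move as 1 group. Of 7 tested at their brightest probe sets, HRK rose and BID and BIK fell in the centred values, 4 rose and 2 fell as deposited, and 4 rose and 1 fell after quantile normalization. In the centred values 2.59% of the genes tested were called higher and 31.2% lower, as deposited 12.3% and 15.4%, and after quantile normalization 10.2% and 15.8%. BID, which caspases cut into an activator of BAX, had 580 ± 110 in quiescent and 1428 ± 124 in cycling samples (SD, n = 4 each), and a log2 difference of −1.73 centred (limma adjusted p = 1.35e-05) and −1.32 as deposited. HRK differed by 1.78 centred (adjusted p = 0.015) and BIK by −0.81 (adjusted p = 3.23e-03). The centred call of HRK was lost without cycling sample 4 (adjusted p = 0.0503), and the deposited call of BIK without quiescent sample 1, 2 or 3 or cycling sample 1, 3 or 4 (adjusted p up to 0.125). HRK measured 914 ± 211 in quiescent and 238 ± 139 in cycling samples (SD, n = 4 each), and BIK 2223 ± 210 in quiescent and 2931 ± 388 in cycling samples.

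The count of genes downstream of the pore that fell depended on the scaling. Of 11 tested in the mitochondrial death pathway, 7 fell and 0 rose centred (31.2% and 2.59% of all genes), 3 fell and 1 rose as deposited (15.4% and 12.3%), and 3 fell and 1 rose after quantile normalization (15.8% and 10.2%), with a median difference of −0.70 centred and −0.29 as deposited, against −0.33 and 0.08 for all genes tested. CYCS, which encodes cytochrome c, had 19904 ± 2451 in quiescent and 34104 ± 2432 in cycling samples (SD, n = 4 each), a log2 difference of −1.20 centred (limma adjusted p = 5.68e-05) and −0.78 as deposited. AIFM1, a mitochondrial oxidoreductase, fell by 1.43 centred, and BIRC5, survivin, which acts in mitosis, by 3.47. Of 10 partners at the mitochondrial membrane, 7 fell and 0 rose centred, where 31.2% and 2.59% of all genes did, 4 fell and 1 rose as deposited (15.4% and 12.3%), and 3 fell and 1 rose after quantile normalization (15.8% and 10.2%). MTCH2, a receptor for cut BID, had 1393 ± 212 in quiescent and 4561 ± 1405 in cycling samples (SD, n = 4 each) and fell by 2.08 centred (adjusted p = 4.03e-05) and by 1.67 as deposited. The fission enzyme DNM1L and the channel VDAC1 fell by 1.02 and 0.94 centred and by 0.60 and 0.53 as deposited, where VDAC1 was not called without cycling sample 3 (adjusted p = 0.0513).

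Of 11 genes that control the turnover of MCL1 and other proteins, 4 fell and 0 rose centred, a count near the 31.2% of all genes that fell. As deposited and after quantile normalization 3 fell and 0 rose, where 15.4% and 15.8% of all genes fell. Those that fell include USP13, a deubiquitinase, CUL3 and DDB1, parts of ubiquitin ligases, which fell by 1.46, 0.86 and 0.84 centred and by 1.05, 0.45 and 0.42 as deposited, where DDB1 was not called without quiescent sample 3 or cycling sample 3 (adjusted p up to 0.0558). HUWE1 and USP9X, the ligase and the deubiquitinase best known for MCL1, differed by −0.28 and −0.18 centred. As deposited they differed by 0.13 and 0.23, and they were not called. HUWE1 was read at an _x_at probe set, whose probes may also bind other transcripts, so its values may not be those of HUWE1 alone. Of 7 other BCL2-related genes tested, 0 rose and 3 fell centred (2.59% and 31.2% of all genes), 2 rose and 1 fell as deposited (12.3% and 15.4%), and 3 rose and 2 fell after quantile normalization (10.2% and 15.8%). With so few genes these counts are imprecise, and they were not tested against the shares of all genes. BNIP1 was called lower under all 3 scalings (−0.92 centred), BCL2L12 (−0.83) not as deposited, and BNIP2 (−0.73) in the centred values alone. As deposited the BNIP1 call was lost without any 1 sample other than quiescent sample 1 (adjusted p up to 0.136), and the centred BNIP2 call without quiescent sample 1 or 4 or cycling sample 3 or 4 (up to 0.1).

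**Figure D5:**
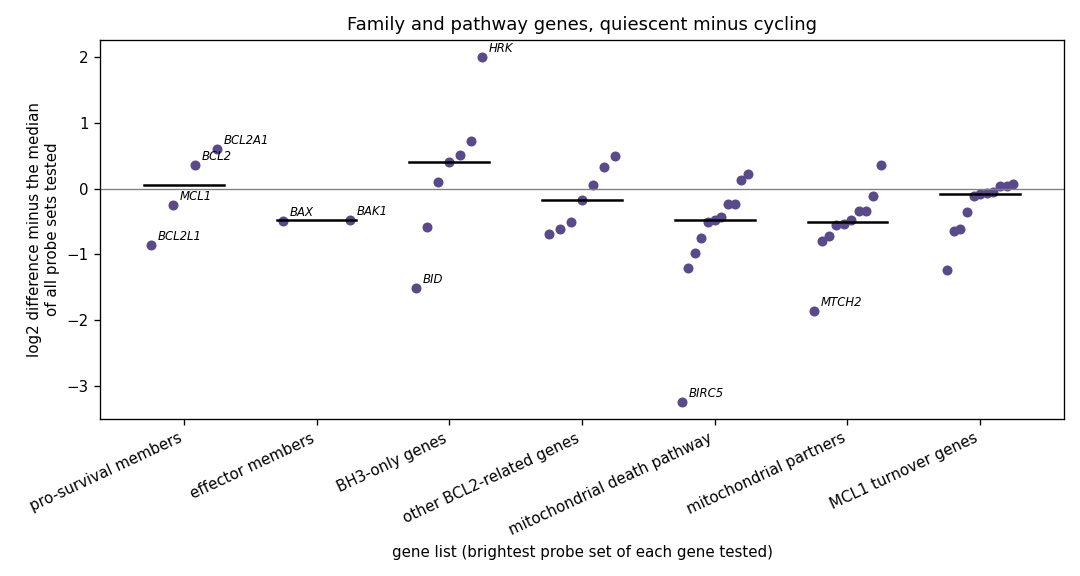
Excess of each gene, its log2 difference (quiescent minus cycling) minus the median of all probe sets tested, at its brightest probe set, by gene list, with a bar at each list's median. Survival members spread to both sides of 0, BAX and BAK1 lie at −0.49 and −0.47, and HRK and BIRC5 are the outermost genes.

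Likeness of pattern was measured as the root mean square difference in log2 between the profiles of the brightest probe sets over the 8 arrays, each centred on its own mean. The genes nearest to BCL2 were BMPR2, CTBP1-DT and RASSF6 (0.099 to 0.112, where the median gene was at 0.467). Nearest to BCL2A1 were RAB11FIP1, BCL2L11 and CYLD (0.072 to 0.105), and BCL2L11, the BH3-only gene for BIM, differed by 0.29 centred and 0.70 as deposited. ADIG, POLRMT and SHPK were nearest to BCL2L1 (0.188 to 0.202), and SRSF6, ZNF622 and MFSD8 to MCL1 (0.078 to 0.08). For BAX they were TTC28-AS1, HMGN3 and TBC1D1 (0.114 to 0.119), and for BAK1 RAB1B, SCAMP3 and PKIG (0.137 to 0.165). The arrays share scaling and sorting group, and these values are a description.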

How the data were processed

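The deposited values are linear intensities made with MAS5 (version not stated), per the submitters' processing notes. From the values, the authors scaled each array so that its mean without the lowest and highest 2% is 499.9. With no detection calls used, dim values may be background. Intensities were floored at 1 (0 member values were lower) and taken to log2, and the arrays were centred on the median of their 54613 non-control probe sets. The 27307 probe sets with a mean at or above an intensity of 83.3 were compared with limma 3.58.1 in R 4.3.3 (lmFit, eBayes with trend and robust, no covariate), with Benjamini-Hochberg adjustment over all of them and a threshold of 0.05. The platform annotation, which can be old, gave 1 symbol for 41091 probe sets, several for 1801 and none for 11721, and 41037 were matched to RefSeq. Some listed genes had no such probe set and are not analysed here. Single values were tested by two-sided exact permutation. Tables and plots used Python 3.11.15. 0 columns of values were left unused.

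The members, lists and tests were chosen with earlier results of these data known. All member probe sets are named, with up to 3 called members of each other list by smallest p, further ones chosen after their values were seen, and the 3 genes nearest in pattern. Alternatives were other scalings, filters, an offset of 32, 1 probe set per gene, plain eBayes, the sample number as a block and leaving out each sample. The deposited scaling without each sample or with the block, and quantile normalization with the block, were added after seeing the data.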

Additional observations from a re-analysis of the deposited data

Results flagged for a closer look

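In 3 of 34 groups of 4 samples, 1 sample stood far from the other samples of its group in the centred values, where chance flags about 1 in 20. BCL2L1 at 206665_s_at was low in cycling sample 2, with an intensity of 221.9. BCL2L1 at 215037_s_at was low in quiescent sample 3, at 141.4. MCL1 at 227175_at was high in quiescent sample 3, at 143.6. The call of 215037_s_at was lost without quiescent sample 3 (limma adjusted p = 0.0967).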

How the results depend on the processing

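Calls of the members depended on the scaling. With 1 probe set higher and 6 lower in the centred values, the deposited scaling gave 4 and 0, quantile normalization 3 and 1, no filter 0 and 3, the stricter filter at the 75th percentile 0 and 3 (7 tested), and 1 probe set per gene 0 and 3 (6 tested). Plain eBayes gave 0 higher. Leaving out 1 sample gave 0 to 1 higher and 3 to 8 lower centred, and 2 to 4 and 0 to 1 as deposited. Over the 46 pathway genes, 1 higher and 23 lower became 8 and 13 as deposited, 9 and 12 after quantile normalization, 0 higher with the stricter filter, and 0 to 2 higher without 1 sample. Same-numbered samples had correlations of 0.041 to 0.309 between their deviations, and 6 of 8 samples correlated best with their own number. Only 2 of 4 correlations passed the limit of 0.1 used here for pairs, so the main fit left the numbers out. Pairing by number is not stated in the labels and is not excluded by these values. With the sample number as a replicate block, 1 probe set was higher and 9 lower centred, the 3 further ones being MCL1 200797_s_at, BAX 208478_s_at and BAK1 203728_at (adjusted p = 0.00673, 0.0164 and 0.021), 4 and 2 as deposited, 3 and 4 after quantile normalization, and 2 pathway genes were higher. Differences that changed sign were those of 231228_at (0.341 as deposited, and −0.396 to 0.245 without 1 sample), 200797_s_at (0.023 after quantile normalization) and 214057_at (0.071 as deposited, 0.001 after quantile normalization). Relative to BCL2 on the same array, the tested probe sets of each gene were also averaged, BCL2 included. This gave −1.10 for BCL2L1, −1.02 for MCL1, −0.058 for BCL2A1, −1.27 for BAX and −1.13 for BAK1. BCL2A1 and BAK1 are each read by 1 probe set, so that their values changed through the BCL2 reference alone. Without 1 sample these differences, at the brightest probe sets, were −1.461 to −0.889 for BCL2L1, −0.855 to −0.502 for MCL1, −0.036 to 0.401 for BCL2A1, −1.090 to −0.719 for BAX, −0.956 to −0.635 for BAK1 and −1.257 to −0.049 for BOK. Without quiescent sample 1 those of BCL2L1, BAX, BAK1 and BOK passed (exact permutation, p = 0.0286 and adjusted p = 0.0429 each). The adjusted p depends on how many comparisons reach the smallest p. BOK is counted among these here, although it did not pass the filter and may be background. The adjusted p with BOK left out of the comparisons was not calculated. The cause of these changes was not tested. Detection calls were not used here, so that dim values may be background.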

Other observations

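BCL2L1 probe set 231228_at fell into high and low samples within both groups. It measured 72.7 and 75.02 in quiescent samples 1 and 2 and 266 and 278 in quiescent samples 3 and 4, against 256 and 175 in cycling samples 2 and 3 and 61.7 and 56.5 in cycling samples 1 and 4. BCL2 probe set 203684_s_at measured 6.01 in cycling sample 1, against 96.0 to 120 in the other cycling samples.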
